A study of Mus musculus with 13 samples.

Results

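The genes examined here were 10 mesodermal and mesoderm-derived bHLH transcription factor genes, Hand1, Hand2, Twist1, Mesp1, Mesp2, Tcf15, Tcf21, Msc, Myod1 and Tal1, of 22367 protein-coding genes on chromosomes 1 to 19, X and Y. They were chosen by name, not by a rule on any measured value, but with earlier results of these data known. The GENCODE vM1 annotation placed them on the mm9 build. The measurements were 5 lists of ChIP-seq peaks from mouse embryonic stem cells (mESCs). In ChIP-seq, chromatin is recovered with an antibody and its DNA sequenced, and a peak is a stretch with more fragments than background. AEBP2, an accessory subunit of the Polycomb complex PRC2, was mapped in replicates 1 and 2 with an antibody raised for the study. The mark placed by PRC2, H3K27me3, was also mapped in replicates 1 and 2. FS2-AEBP2, a plasmid-expressed AEBP2 with an N-terminal Flag-StrepII tag, was mapped in 1 sample and so has no replicate. All 5 samples are labelled as a wild-type male line, the 129/1 XY ES cell line, grown undifferentiated on gelatine with LIF, whereas for the tagged protein the methods give E14 mESCs. The tagged ChIP also used another protocol, with blocked Protein A Sepharose beads. The labels write the mark as H3K27, and its methylation state comes from the methods. Which H3K27me3 list is replicate 1 and which replicate 2 is uncertain, because names and records disagree on the number. The SUZ12, input and AEBP2 KO samples were not analysed here. Nothing in the labels says that the replicates came from separate cultures, so the spread between them may be technical.

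The lists held 2877 and 6779 AEBP2 peaks in replicates 1 and 2, 2884 FS2-AEBP2 peaks, and 14112 and 9275 H3K27me3 peaks. Depth is unknown, since no read counts accompany the peaks. A missing peak therefore says only that none was called. AEBP2 replicate 2 holds more peaks than replicate 1, and the part this plays at genes below with a peak in replicate 2 only was not tested. Of 6 pluripotency genes, 5 (Pou5f1, Nanog, Sox2, Esrrb and Zfp42) had no promoter peak in any list. As 68.5% of all promoters had none, this does not check the cell type. The sixth, Klf4, had a promoter peak of FS2-AEBP2 and of H3K27me3 replicate 1. Peaks measure no expression.

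Proteins of the basic helix-loop-helix (bHLH) family bind DNA as dimers at a short motif called the E-box, CANNTG. Tissue-restricted members, such as those here, usually pair with broadly expressed E proteins, and the Id proteins block this by pairing with E proteins without binding DNA. Many of these factors start a cell fate: Mesp1 marks early cardiovascular mesoderm, Myod1 skeletal muscle, Tal1 blood. In mESCs, which have not entered these fates, PRC2 and its mark are known to lie over CpG-rich promoters of silent developmental genes. Because PRC2 is found at CpG islands, the DNA under the peaks is shown first.

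Inside each broad peak the lists mark narrower enriched segments, called inner segments here. For each gene, the stretch held by the inner segments of every AEBP2 and FS2-AEBP2 list with a peak at its promoter was taken, within 2 kb of the start site and outside annotated UTRs, and cut to its central 300 bases where longer. A promoter here is 1 kb on either side of the first annotated start site. Of the 10 genes, 9 had such a stretch, and Myod1 had none, since no base was shared by the inner segments of its 3 peaks. The 6 stretches shown were chosen to span the range from the most widely occupied gene (Hand2) to the least (Tcf15). They read 5′ to 3′ on the strand of the gene, with every CpG in capitals.
Hand2: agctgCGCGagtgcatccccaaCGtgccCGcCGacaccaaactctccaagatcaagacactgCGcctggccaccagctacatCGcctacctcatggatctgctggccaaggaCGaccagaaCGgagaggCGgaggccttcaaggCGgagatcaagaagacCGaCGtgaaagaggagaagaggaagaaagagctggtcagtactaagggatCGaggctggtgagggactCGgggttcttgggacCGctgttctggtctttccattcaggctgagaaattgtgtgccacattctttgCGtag
Tal1: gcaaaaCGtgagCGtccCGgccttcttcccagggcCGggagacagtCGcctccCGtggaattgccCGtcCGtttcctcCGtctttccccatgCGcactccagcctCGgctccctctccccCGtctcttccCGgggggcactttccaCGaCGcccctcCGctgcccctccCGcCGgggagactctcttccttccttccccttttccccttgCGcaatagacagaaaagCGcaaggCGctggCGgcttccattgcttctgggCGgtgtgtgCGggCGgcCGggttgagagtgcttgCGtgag
Twist1: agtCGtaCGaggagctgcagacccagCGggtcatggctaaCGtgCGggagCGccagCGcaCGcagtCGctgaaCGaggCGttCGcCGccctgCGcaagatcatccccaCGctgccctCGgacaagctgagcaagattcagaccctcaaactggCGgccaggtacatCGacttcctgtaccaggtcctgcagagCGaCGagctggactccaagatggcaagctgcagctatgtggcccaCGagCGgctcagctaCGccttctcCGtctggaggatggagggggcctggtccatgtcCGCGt
Tcf21: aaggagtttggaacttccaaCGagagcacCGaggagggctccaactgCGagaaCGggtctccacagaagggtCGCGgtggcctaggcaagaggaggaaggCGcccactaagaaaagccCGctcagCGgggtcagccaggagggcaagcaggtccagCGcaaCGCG
Mesp2: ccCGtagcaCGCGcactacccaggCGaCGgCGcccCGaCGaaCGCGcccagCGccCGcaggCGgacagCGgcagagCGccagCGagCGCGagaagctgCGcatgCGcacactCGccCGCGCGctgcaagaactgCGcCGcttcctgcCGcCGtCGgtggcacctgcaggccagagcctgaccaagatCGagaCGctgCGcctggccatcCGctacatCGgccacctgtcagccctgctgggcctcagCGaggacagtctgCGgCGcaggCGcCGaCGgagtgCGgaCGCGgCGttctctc
Tcf15: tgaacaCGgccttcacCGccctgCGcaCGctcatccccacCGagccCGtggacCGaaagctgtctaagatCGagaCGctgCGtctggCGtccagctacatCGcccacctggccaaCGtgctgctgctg
The Hand2 stretch (chr8:59801065-59801364, plus strand) has 17 CpGs in 300 bases, of which 194 are coding and 106 intronic. The Tal1 stretch (chr4:114729409-114729708, plus strand) is wholly intronic with 27 CpGs. The Twist1 stretch (chr12:34643156-34643455, plus strand) is wholly coding with 26 CpGs. Each of these was enriched in both AEBP2 replicates and with the tagged protein, as was the Tcf21 stretch (chr10:22539461-22539625, minus strand), 165 coding bases with 12 CpGs. The Mesp2 stretch (chr7:86955987-86956286, plus strand), enriched in AEBP2 replicate 2 alone, is coding throughout and the richest of the 6, with 44 CpGs and a GC content of 72.7%. The Tcf15 stretch (chr2:151969618-151969745, plus strand) was enriched with the tagged protein alone and has 13 CpGs in 128 coding bases.

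All 9 stretches lay downstream of the start site, by 309 to 1584 bases. Of the 9, 7 were wholly or partly coding (Hand1, Hand2, Twist1, Mesp2, Tcf15, Tcf21 and Msc), and Mesp1 and Tal1 were intronic. UTR bases had been left out beforehand, so no stretch could lie in a UTR, and these positions partly follow from the choice. As background, the bHLH domain of Hand1, Hand2, Twist1, Mesp2, Tcf15 and Msc is encoded in the first coding exon. The stretches of these genes lie there, apart from 106 intronic bases at Hand2 and 27 at Msc. The 10-letter run most widely shared among the 9 stretches, found by comparing them, was CTGCGCCTGG, level with the overlapping run TGCGCCTGGC. Both were in 4 of the 9 (Hand1, Hand2, Mesp2 and Msc). On either strand, the first was in 1.03% and the second in 0.715% of all promoter windows of 2001 bp. The stretches are shorter, were read on 1 strand, and at Hand1 and Hand2 lie outside the window. These shares are therefore no background for the 4 of 9. These letters describe what the stretches share and are not a binding site.

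Of the 10 genes, 6 had an AEBP2 promoter peak in replicate 1, 9 in replicate 2, and 8 an FS2-AEBP2 promoter peak. Over all protein-coding promoters these shares were 9.08%, 22.3% and 6.53%. H3K27me3 had a promoter peak at 9 of the 10 in replicate 1 and 9 in replicate 2, against 17.0% and 17.7% of all promoters. The 9 were the same genes in both replicates, all but Tcf15, and 15.0% of all promoters had H3K27me3 in both. Both AEBP2 replicates had a peak at 6 of the 10, against 8.44% of all promoters, and the same 6 genes (Hand1, Hand2, Twist1, Tcf21, Myod1 and Tal1) had a peak in all 5 lists, against 4.57%. These genes were listed by name with earlier results of the data known, so the counts stand beside the background without a test. Marked promoters had AEBP2 more often than all promoters did. At 3330 promoters, a stretch lay under H3K27me3 peaks of both replicates. AEBP2 replicate 1 reached this stretch at 1439 of them, replicate 2 at 2316, and the tagged protein at 1380. At the 9 marked genes here the numbers were 6, 9 and 7. How much of the excess over all promoters goes with the mark was not tested. Over the gene bodies, the counts were 6, 9, 8, 9 and 9 in the same order of lists, against 10.3%, 24.9%, 7.69%, 20.8% and 20.2% of all gene bodies.

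**Figure D1:**
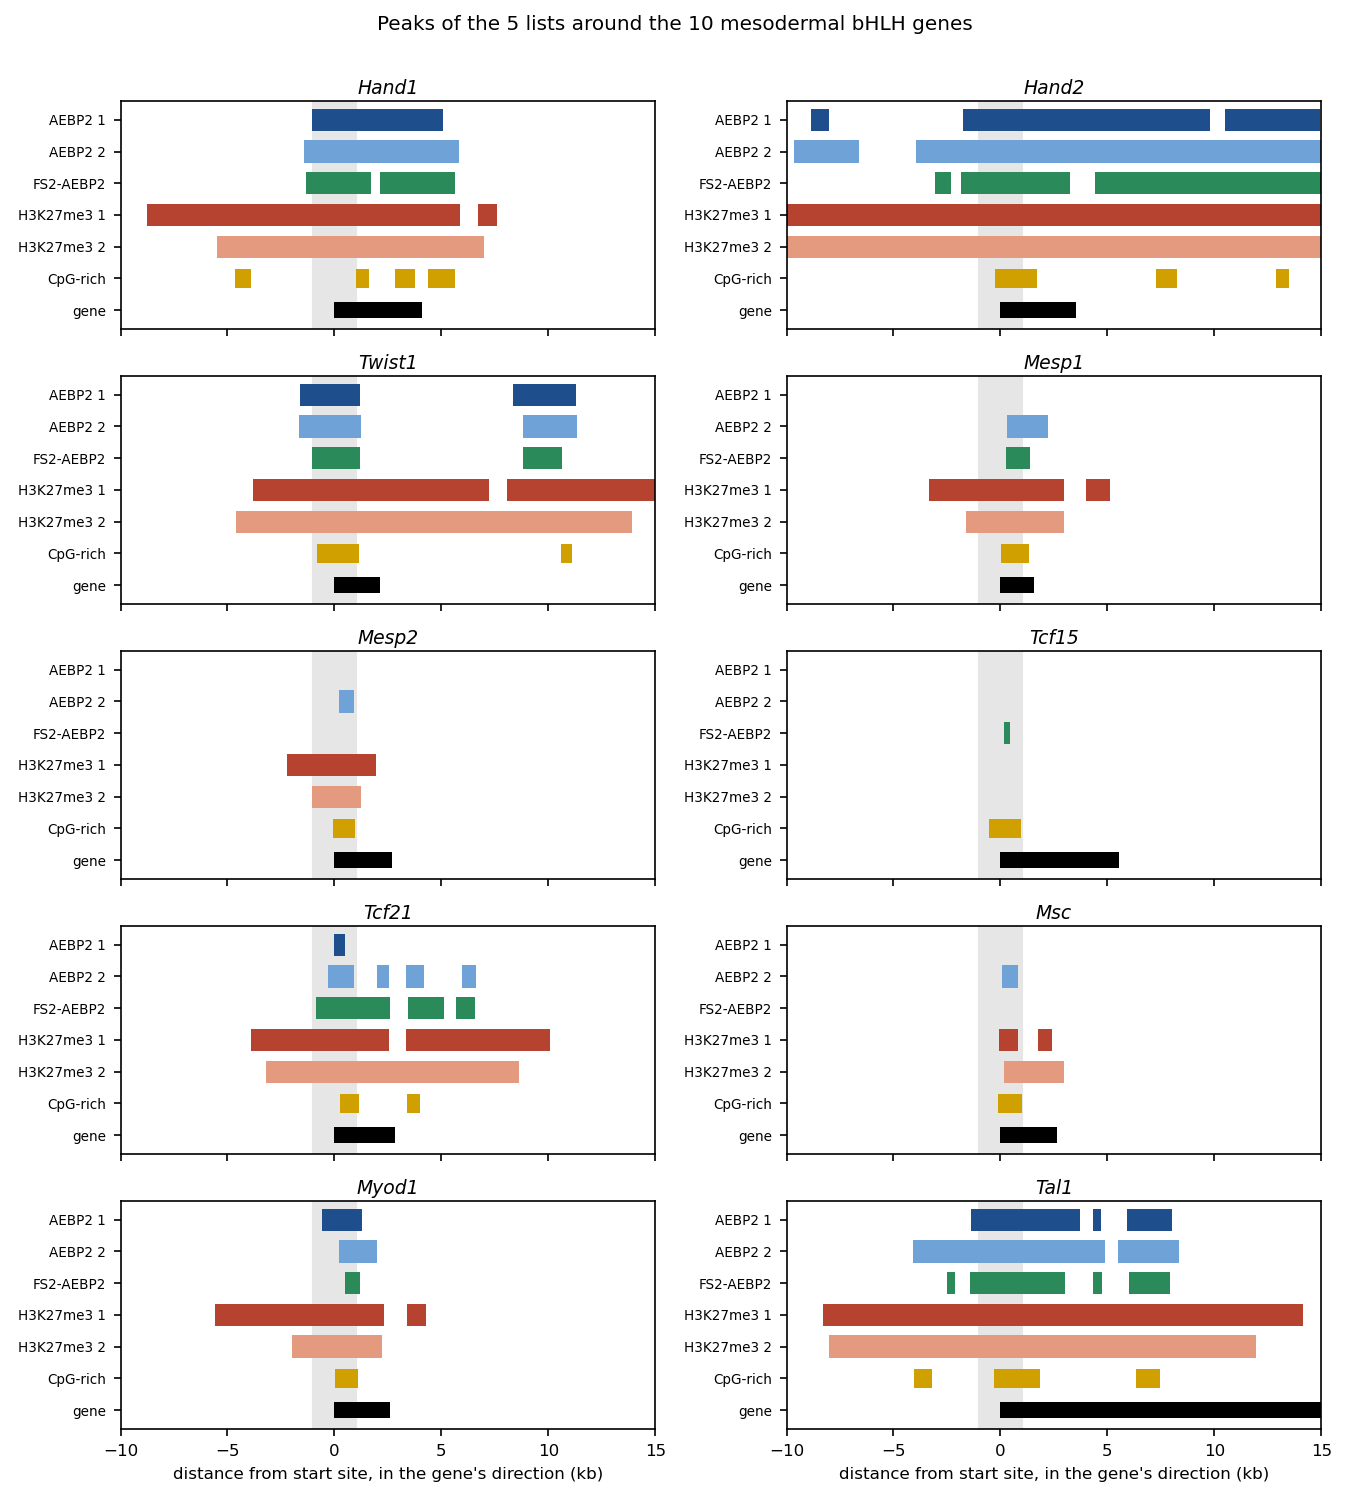
Peaks of each list around the 10 genes, as distance from the first start site in the direction of the gene (kb), with the promoter window of 1 kb on either side in grey, CpG-rich regions in yellow and the gene in black. Numbers 1 and 2 after a target are replicates, and the view runs from 10 kb upstream to 15 kb downstream. Several peaks of Hand2 and the second peak of H3K27me3 replicate 1 at Twist1 run past its edges. More distant H3K27me3 peaks around Myod1, Tal1, Mesp1 and Mesp2, and the farthest CpG-rich region of Tcf21, lie out of view. AEBP2 and FS2-AEBP2 bars lie within the longer H3K27me3 bars at every gene but Tcf15 and, in part, Msc and Tcf21.

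Hand2 (chr8:59799780-59803314, plus strand), needed for heart and limb bud development, had the longest promoter peaks of the 10 genes in all 5 lists. Its AEBP2 peaks were 11584 bp in replicate 1 and 33534 bp in replicate 2, its FS2-AEBP2 peak 5079 bp, and its H3K27me3 peaks 49864 bp and 48425 bp. The H3K27me3 replicates were close in length, while the AEBP2 peak of replicate 2 was the longer of its pair. A further AEBP2 peak of 4477 bp in replicate 1 and an FS2-AEBP2 peak of 16368 bp lay downstream, inside the stretch covered by the single peak of replicate 2, which reached 29581 bases past the start site. In replicate 1 the mark ran from position -14282 to 35581 relative to the start site, far beyond the 3535-bp gene. The nearest other protein-coding start site, that of Scrg1, is 134940 bp away. In the scores, which the peak caller gave and which are ranked here only within a list, the Hand2 peaks exceeded 88.3% and 97.4% of AEBP2 peaks, 96.9% of FS2-AEBP2 peaks, and 95% and 98.9% of H3K27me3 peaks.

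Hand1 (chr11:57642207-57646320, minus strand), which acts in trophoblast giant cells and the heart, had a single AEBP2 peak over its whole 4114-bp body in each replicate, of 6117 bp and 7232 bp. FS2-AEBP2 had a peak of 3030 bp over the start site and another of 3482 bp over the end of the gene. H3K27me3 peaks were 14622 bp and 12461 bp long. The score of the AEBP2 peak was higher than that of 67.7% of peaks in replicate 1 and of 96.2% in replicate 2 although the lengths were close. Hand1 was the only one of the 10 without a CpG-rich region in its promoter window. Such a region is a run of 500-bp windows in which at least 55% of bases are G or C and CpGs reach 0.65 of the number that the base composition predicts. Of the 10055 promoters without one, 33 (0.328%) had a peak in all 5 lists, and Hand1 was among them. Its CpG-rich regions lay past the window, at 1020 to 1629, 2820 to 3789 and 4370 to 5629 bases downstream of the start site, and each of these 3 had a peak in all 5 lists. Another upstream, at -4640 to -3881, had H3K27me3 in both replicates and no AEBP2 or FS2-AEBP2. It lies by the start site of the predicted gene Gm11003, 4946 bp upstream of that of Hand1, and both H3K27me3 peaks of Hand1 reached that promoter too.

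Twist1 (chr12:34642536-34644682, plus strand), a factor of head mesenchyme and of the epithelial-to-mesenchymal transition, had AEBP2 and FS2-AEBP2 promoter peaks of nearly even length. Its AEBP2 promoter peaks were 2833 bp and 2935 bp and its FS2-AEBP2 peak 2228 bp, all over the whole promoter and the first part of the gene. These peaks outscored 85%, 89.4% and 75.6% of their lists. H3K27me3 was less even, with 11000 bp in replicate 1 and 18490 bp in replicate 2. Replicate 1 had another peak of 8466 bp starting 8049 bases downstream of the start site. A second site downstream carried AEBP2 as well, with peaks of 2914 bp and 2527 bp in the AEBP2 replicates and 1809 bp for FS2-AEBP2. These began 8362, 8825 and 8815 bases after the start site, beyond the end of the gene, and each overlapped a 510-bp CpG-rich region at 10575 to 11084 bases. The next protein-coding start site is that of Ferd3l, another bHLH gene, 29246 bp upstream, so the downstream site lay by no other protein-coding promoter.

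Tcf21 (chr10:22537085-22539934, minus strand), a factor of the epicardium, kidney and visceral mesenchyme, had the shortest AEBP2 peaks of the genes found in all 5 lists. They were 506 bp in replicate 1 and 1241 bp in replicate 2. The tagged protein had the longer peak here, 3453 bp, and H3K27me3 had peaks of 6480 bp and 11865 bp. Of the genes found in all 5 lists, Tcf21 was the only one whose FS2-AEBP2 promoter peak was longer than both AEBP2 peaks, a difference given without a test because the tagged protein has 1 sample. A second CpG-rich region, 3374 to 4023 bases downstream and past the end of the gene, had peaks of AEBP2 replicate 2, FS2-AEBP2 and both H3K27me3 replicates but not of AEBP2 replicate 1. The region farthest away, 16324 to 16853 bases downstream, had no peak in any list.

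**Figure D2:**
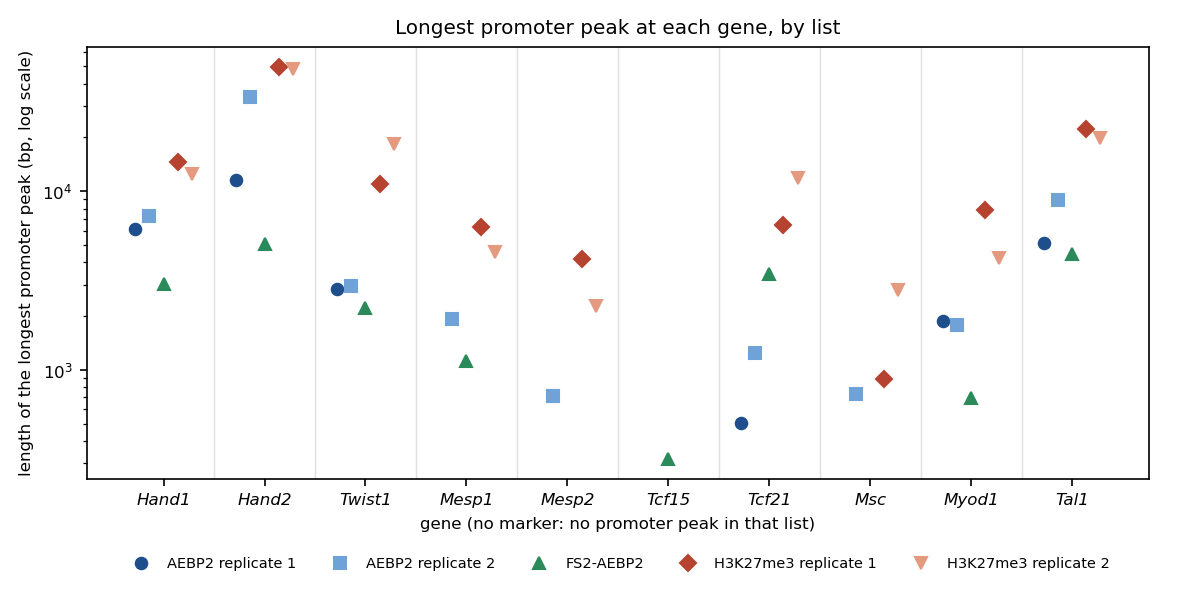
Length of the longest promoter peak (bp, log scale) at each of the 10 genes, with a marker for each of the 5 lists. The AEBP2 and FS2-AEBP2 markers lie below both H3K27me3 markers at every gene with the mark, from 710 bp at Mesp2 to 33534 bp at Hand2 in AEBP2 replicate 2, and Tcf15 has 1 marker, at 316 bp.

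Mesp1 and Mesp2 are neighbours on chromosome 7 with start sites 16939 bp apart, and the peaks over them were separate in every list. Mesp1 (chr7:86937127-86938674, minus strand), a factor of early cardiovascular mesoderm, had no AEBP2 promoter peak in replicate 1. It had one of 1914 bp in replicate 2 and an FS2-AEBP2 peak of 1127 bp. The AEBP2 peak began 288 bases after the start site and both lay over a CpG-rich region that starts 44 bases after it. The AEBP2 peak outscored 76.7% of its list and the FS2-AEBP2 peak only 16.9%. H3K27me3 covered the whole promoter with peaks of 6283 bp and 4566 bp. Mesp2 (chr7:86955613-86958317, plus strand), which sets segment boundaries in the presomitic mesoderm, had AEBP2 in replicate 2 only, as a peak of 710 bp, and no FS2-AEBP2. This peak ran from 191 to 900 bases after the start site and outscored 25.2% of its list. Its H3K27me3 peaks, 4176 bp and 2266 bp, ranked far apart, above 9.97% of peaks in replicate 1 and 82.3% in replicate 2. The order of the pair was the same in each list with a peak at both, with the longer peak at Mesp1.

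Tcf15 (chr2:151969297-151974833, plus strand), also called paraxis and needed for somites to form an epithelium, was the exception. It had no AEBP2 and no H3K27me3 peak in either replicate, in the promoter or in the gene body. The tagged protein had a single peak of 316 bp, 144 to 459 bases after the start site, with a score above that of only 4.13% of its list. FS2-AEBP2 alone was found at 56 promoters (0.25%), 52 of which had a CpG-rich region. The Tcf15 promoter was among the most CpG-rich of the 10, with 153 CpGs and the highest observed to expected CpG ratio, 0.865, and a CpG-rich region of 1520 bp ran over its start site.

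Msc and Myod1 act in skeletal muscle. Msc (chr1:14743427-14746047, minus strand) encodes musculin, a repressor in muscle progenitors. It had AEBP2 in replicate 2 only, as a peak of 729 bp from 82 to 810 bases after the start site, and no FS2-AEBP2. By the mean of the replicates, H3K27me3 was the least extensive of the 9 marked genes, with 886 bp in replicate 1 and 2784 bp in replicate 2, and the peak of replicate 2 began 177 bases after the start site. Its rank was above 67.4% of peaks in replicate 1 and 28% in replicate 2. A predicted gene on the other strand, Gm9947, starts 512 bases inside Msc, so the AEBP2 and H3K27me3 peaks of Msc lie over both promoters and cannot be told apart between them.

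Myod1 (chr7:53631844-53634462, plus strand), the skeletal muscle determination factor, had peaks in all 5 lists, but low-ranking ones in AEBP2 replicate 1 and FS2-AEBP2. The AEBP2 peaks were 1867 bp and 1788 bp, of like length, but outscored 2.75% of their list in replicate 1 and 51.9% in replicate 2. The FS2-AEBP2 peak was 697 bp and outscored 26.7%. The H3K27me3 peaks were 7900 bp and 4229 bp and outscored 96% and 77.5% of their lists. The AEBP2 peak of replicate 1 covered the start site, whereas that of replicate 2 began 209 bases and that of FS2-AEBP2 500 bases after it. Over all promoters with a peak, the median rank was 47.2% and 51.9% in the AEBP2 replicates and 57.5% in FS2-AEBP2. In the H3K27me3 replicates it was 79.4% and 71.6%. Against these medians, Myod1 ranked lower in AEBP2 replicate 1 and FS2-AEBP2, level in AEBP2 replicate 2, and higher in both H3K27me3 replicates.

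Tal1 (chr4:114729031-114744360, plus strand), also called Scl and needed for blood formation, came next to Hand2 by the mean length of its promoter peaks in both targets, although Hand1 had the longer peak in AEBP2 replicate 1. Its AEBP2 promoter peaks were 5123 bp and 8964 bp, its FS2-AEBP2 peak 4427 bp, and its H3K27me3 peaks 22444 bp and 19928 bp. The scores were above those of 95.7% and 98.1% of AEBP2 peaks and 99.3% of FS2-AEBP2 peaks, the highest rank of the 10 in FS2-AEBP2. A second occupied site lay within the gene, at peaks of 2093 bp and 2866 bp in the AEBP2 replicates and 1917 bp for FS2-AEBP2. These covered a CpG-rich region of 1130 bp that begins 6330 bases after the start site. An upstream CpG-rich region, at -4060 to -3201, had AEBP2 in replicate 2 only, with H3K27me3 in both replicates.

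**Figure D3:**
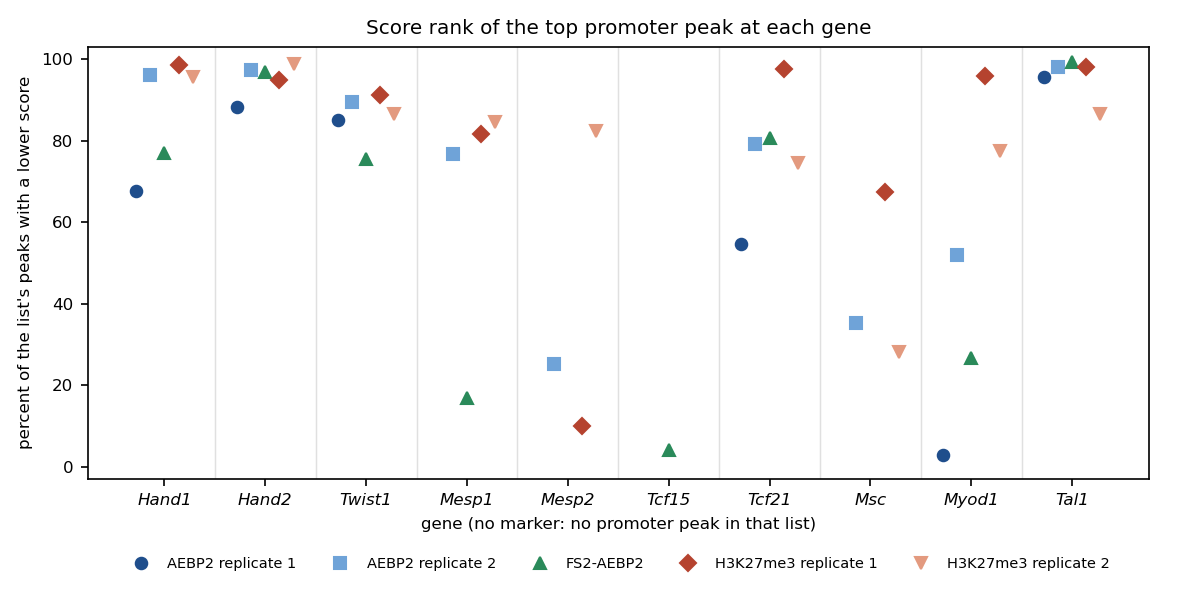
Percent of peaks in the same list with a lower score than the top promoter peak, for each of the 10 genes and 5 lists. Hand2, Twist1 and Tal1 lie above 75% in every list, whereas Mesp1, Mesp2 and Myod1 spread over much of the axis and Tcf15 has 1 marker near its foot, at 4.13%.

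Ordered by the mean length of the promoter peak in the 2 H3K27me3 replicates, the 9 marked genes ran Hand2, Tal1, Twist1, Hand1, Tcf21, Myod1, Mesp1, Mesp2 and Msc, from 49144.5 bp to 1835 bp. Of the 8 pairs of neighbours in this order, the ranges of the 2 replicates were apart for 4 and overlapped for 4, namely Twist1 and Hand1, Tcf21 and Myod1, Myod1 and Mesp1, and Mesp2 and Msc. For AEBP2, the 6 genes with a peak in both replicates ran Hand2, Tal1, Hand1, Twist1, Myod1 and Tcf21, from 22559 bp to 873.5 bp. Here the ranges overlapped for Tal1 and Hand1 only, of 5 neighbouring pairs. Tcf21 stood last for AEBP2 but ahead of Myod1 for the mark.

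The median of the longest promoter peak was 3978 bp in AEBP2 replicate 1, against 1243.5 bp over all promoters with a peak, and 1914 bp against 872 bp in replicate 2. In replicate 2 it was 2935 bp when only peaks reaching the median score of the list were kept. For FS2-AEBP2 the medians were 2629 bp and 1409 bp. For H3K27me3 they were 7900 bp against 4864 bp in replicate 1 and 11865 bp against 3970.5 bp in replicate 2, and joining peaks within 1 kb raised that of replicate 1 to 13964 bp. The median top peak outscored 76.4%, 79.1% and 76.3% of its list in AEBP2 replicates 1 and 2 and FS2-AEBP2, where the medians over all promoters with a peak were 47.2%, 51.9% and 57.5%. In H3K27me3 the medians were 95% and 84.5%, against 79.4% and 71.6%.

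The AEBP2 promoter peaks lay inside the mark. All of their bases in replicate 1 and 99.8% in replicate 2 were inside H3K27me3 peaks of both replicates, as were 98.3% of the FS2-AEBP2 bases. By gene, 6 of 6 peaks of AEBP2 replicate 1, 8 of 9 of replicate 2 and 6 of 8 of FS2-AEBP2 were wholly inside. The exceptions were Msc, with 87% of its AEBP2 peak of replicate 2 inside, and, for FS2-AEBP2, Tcf21 with 99.2% and Tcf15 with none. The same containment was not computed over all promoter peaks, so it cannot be called particular to these genes. The share of the marked stretch under AEBP2 varied from gene to gene. At Msc, AEBP2 replicate 2 covered 99.5% of the 637 bp marked in both replicates, while AEBP2 replicate 1 covered none of it at Mesp1, Mesp2 or Msc. This stretch was 47274 bp at Hand2, of which AEBP2 covered 40.1% in replicate 1, 77.4% in replicate 2, and FS2-AEBP2 57.2%. At Twist1 it was 11000 bp and the 3 lists covered 25.8%, 26.7% and 20.3%. At Tcf21 the 3 lists covered 8.74%, 31.1% and 59.2% of 5787 bp, the widest spread between lists of the 6 genes found in all of them. Where a peak was present, the median share covered over the genes here was 39.2% and 42.3% in the AEBP2 replicates and 36% for FS2-AEBP2. Over the 3330 promoters with a stretch marked in both replicates, it was 34.8%, 39.9% and 29.9% where present.

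Most AEBP2 and FS2-AEBP2 promoter peaks lay towards the gene body. Over the 3 AEBP2 and FS2-AEBP2 lists, the 10 genes had 23 promoter peaks, and the midpoint of 21 lay downstream of the start site. By list these were 5 of 6, 8 of 9 and 8 of 8, against 73.1%, 73.1% and 73.7% over all promoter peaks, so most promoter peaks share this side. The whole peak was downstream in 0 of 6 peaks of AEBP2 replicate 1, 4 of 9 of replicate 2 and 3 of 8 of FS2-AEBP2, against 23.4%, 19.1% and 41.8% of all promoter peaks. These were at Mesp1, Mesp2, Msc and Myod1 in AEBP2 replicate 2 and Mesp1, Tcf15 and Myod1 in FS2-AEBP2. When the start-site base itself had to be covered, these were lost, which left 5 of 10 genes in AEBP2 replicate 2 and 5 in FS2-AEBP2.

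CpG-rich sequence was a common feature of the genes, and one that the choice of genes did not use. A CpG-rich region lay in the promoter window of 9 of the 10, against 55% of all promoters, and all 23 AEBP2 and FS2-AEBP2 promoter peaks overlapped one somewhere along their length, as 97.5%, 97.1% and 94.4% of all promoter peaks in these lists did. Over the 10 genes and the 15 kb on either side of each there were 20 CpG-rich regions. Of these, 12 and 17 had AEBP2 in replicates 1 and 2, 15 had FS2-AEBP2, and 18 had H3K27me3 in each replicate. Both regions without the mark have been named, the distal one of Tcf21 and that over the Tcf15 start site. The share over all CpG-rich regions of the genome was not computed. Of all promoters with a CpG-rich region, 16% and 39% had an AEBP2 promoter peak in replicates 1 and 2. For FS2-AEBP2 this was 11.4%, and for the H3K27me3 replicates 24.5% and 27.5%.

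Genes with more CpG-rich sequence nearby tended to have more bases under peaks. Within 5 kb of the start site, CpG-rich regions held 3020 bases at Tal1 and 2971 at Hand1, against 1010 at Mesp2, 1050 at Myod1 and 1100 at Msc. The AEBP2 peaks of replicate 2 covered 8964 and 6428 bases at the first pair and 710, 1788 and 729 at the others. Across the 10 genes, Spearman's rho between CpG-rich bases and covered bases was 0.759 and 0.845 for the AEBP2 replicates, 0.848 for FS2-AEBP2, and 0.745 and 0.843 for H3K27me3. Over the 3349 promoters with H3K27me3 in both replicates, the same rho was 0.609, 0.649, 0.566, 0.349 and 0.455. With the observed to expected CpG ratio of the promoter window in place of the CpG-rich bases, rho across the 10 genes lay between -0.0798 and 0.0625. The ratio was taken within 1 kb and the CpG-rich bases within 5 kb, so the window changed along with the measure. H3K27me3 covered all 10001 bases at Hand1, Hand2 and Tal1 in both replicates, the most that could be counted. The rho values describe 10 genes that share the same libraries and windows, and genes are not independent replicates. Tcf15 departed from the pattern. It had 1520 CpG-rich bases, nearly as many as Tcf21 with 1550, but 316 covered bases in FS2-AEBP2 and none in the other lists. Hand2 and Twist1 had 1970 CpG-rich bases each, but AEBP2 replicate 2 covered 8953 bases at Hand2 and 2935 at Twist1.

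**Figure D4:**
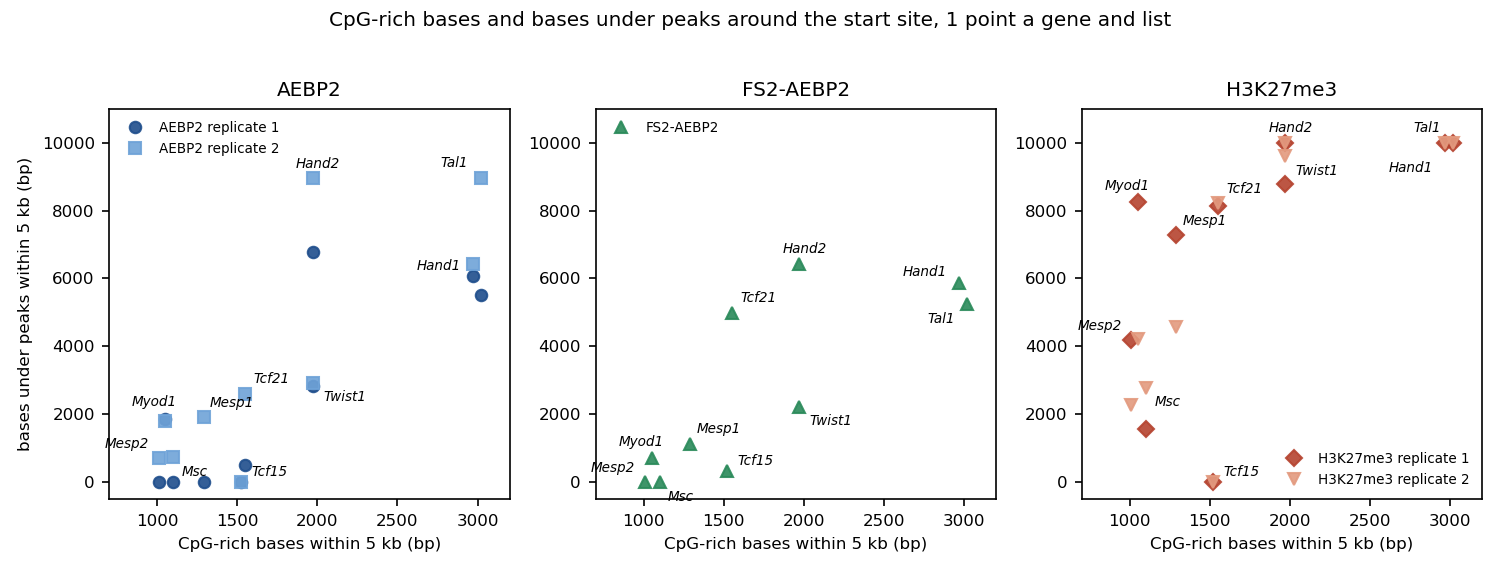
Bases in CpG-rich regions (x axis, bp) and bases under peaks (y axis, bp) within 5 kb of the start site of each of the 10 genes, with AEBP2 replicates, FS2-AEBP2 and H3K27me3 replicates in separate panels. Labels name the gene at its highest marker. Tal1 and Hand1 lie at the upper right, Mesp2 and Msc at the lower left, and Tcf15 on or near the floor of every panel. Hand2 and Twist1 share an x value, 1970 bp, with Hand2 the higher in every panel.

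The sequence of the promoters otherwise varied widely. CpG counts in the 2001-bp window ran from 66 at Hand1 to 184 at Twist1, against a median of 61 over all promoters, and the CpG ratio from 0.423 to 0.865, against 0.468. E-boxes, the motif that the encoded proteins bind, were counted as CANNTG, which reads the same on both strands. The windows of the 10 genes held 1 (Twist1) to 12 (Mesp2), against a median of 9, and 99.94% of all promoters held at least 1, so the motif sets none of them apart.

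For comparison, 13 other bHLH genes, of mesoderm, blood and some other tissues, were counted. AEBP2 was at the promoters of 3 and 5 in the replicates, FS2-AEBP2 at 3, and H3K27me3 at 7 and 5. Bhlha9, Ptf1a (a pancreatic and neural factor) and Twist2, the close relative of Twist1, had a peak in all 5 lists. Lyl1, the relative of Tal1 in blood, had AEBP2 replicate 2 and both H3K27me3 replicates. Tal2 had AEBP2 replicate 2 alone, Ferd3l both H3K27me3 replicates, and Tcf23 and Figla (an oocyte factor) H3K27me3 replicate 1 alone. No list had a promoter peak at Myf5, Myf6, Myog, Scx (a tendon factor) or Msgn1 (a presomitic mesoderm factor). The 4 myogenic regulatory factor genes were thus divided, with Myod1 found in all 5 lists and the other three, Myf5, Myf6 and Myog, in none. Their promoters differed in CpG content too. The Myod1 window held 91 CpGs and 964 CpG-rich bases, whereas those of Myf5, Myf6 and Myog held 49, 33 and 44 CpGs and no CpG-rich region. Of the 13 genes, 5 had a CpG-rich region in the promoter window. A CpG-rich region did not always come with a peak, since Scx has one of 1170 bp and Lyl1 has peaks without one. Over all promoters with a CpG-rich region, 50.7% had no peak in any list, and 90.3% of those without one had none.

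**Figure D5:**
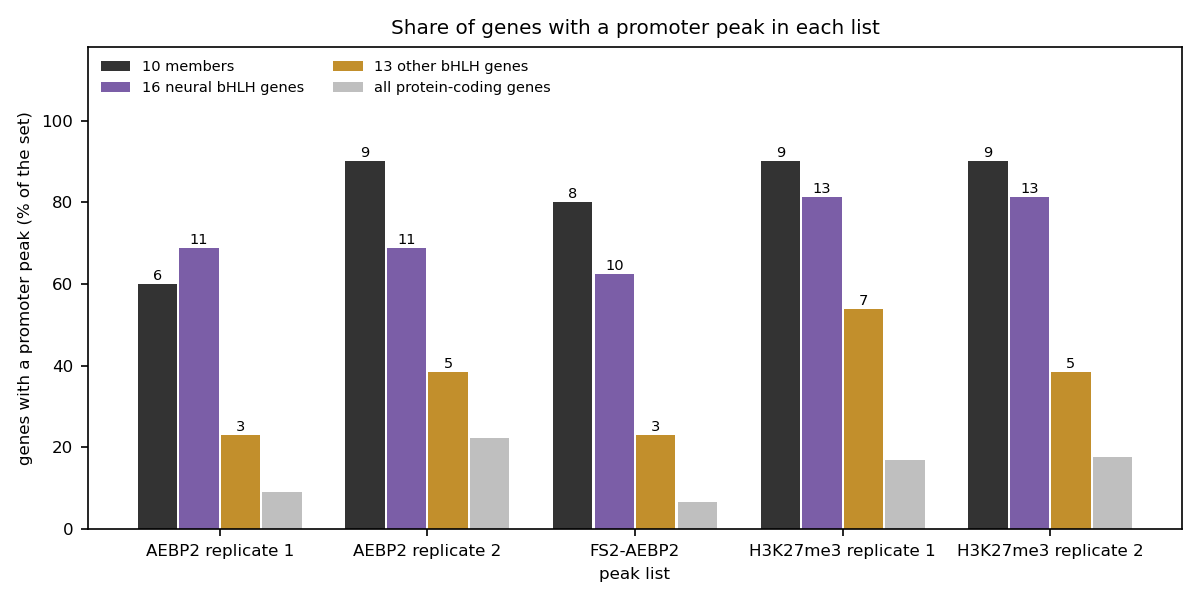
Percent of genes with a promoter peak in each of the 5 lists, for the 10 genes examined, 16 neural bHLH genes, 13 other bHLH genes and all 22367 protein-coding genes. Numbers above bars are gene counts. The 10 genes and the neural genes reach 6 to 9 of 10 and 10 to 13 of 16, and the grey bars for all genes run from 6.53% to 22.3%.

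Of 16 neural bHLH genes, AEBP2 was at 11 in each replicate, FS2-AEBP2 at 10 and H3K27me3 at 13 in each replicate, and 10 (Atoh1 and Bhlhe22 among them) had a peak in all 5 lists. Neurod1 had AEBP2 replicate 1 with both H3K27me3 replicates, Atoh7 AEBP2 replicate 2 with both, and Nhlh2 both H3K27me3 replicates alone, while Neurod4, Neurod6 and Nhlh1 had none. These counts were not tested against those of the 10 genes.

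The partners and inhibitors of the bHLH proteins were looked at as well. Of the 3 E protein genes, Tcf3 and Tcf4 had no promoter peak in any list, and Tcf12 had AEBP2 replicate 2 and both H3K27me3 replicates, although all 3 had a CpG-rich promoter. Of the 4 Id genes, Id3 and Id4 had a peak in all 5 lists. Id1 had both AEBP2 replicates and H3K27me3 replicate 2, and Id2 only H3K27me3 replicate 2.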

How the data were processed

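ChIP-seq peaks of wild-type mESCs were analysed from 5 lists of a series of 13 samples, grouped by the sample labels. The authors aligned reads and called broad peaks in each sample, and their processing notes name Bowtie, SAMtools, Picard, MACS2 2.0.10.2 and mm9, with no settings. The deposited lists give for each peak its start, its end, inner segments and a whole-number score of unstated scale, used only as a rank. The lists hold no read counts, so depth is unknown and no interval was computed. The peak positions fit the mm9 chromosome lengths.

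From these, 15 peaks outside chromosomes 1 to 19, X and Y were left out. Genes were the protein-coding genes of GENCODE vM1, and an overlap was at least 1 bp. Sequence and CpG-rich regions (windows of 500 bp, taken every 10 bp) came from the mm9 genome. The members and gene lists were chosen with earlier results of these data known. All members are named, and of the other lists each gene that differed between peak lists or had no peak, up to 3 with a peak in all 5, and neighbours sharing a peak. A gene that this rule names is not reported here. Tcf24 was not matched in the annotation, and Nhlh1 and Nhlh2 were counted as neural only. No test was run, since the lists hold no counts. Alternatives were a window of 2.5 kb, the start-site base, any annotated start site, at least 500 bp covered, only the upper-scoring peaks of a list (its median score or more), peaks within 1 kb joined, and each replicate left out. The overlap counting was tested on simulated peaks. Analyses used Python 3.11.15, numpy 2.4.6, scipy 1.17.1 and matplotlib 3.10.9.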

Additional observations from a re-analysis of the deposited data

How the results depend on the processing

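Of 85 alternatives tried over the counts, medians and shares, 77 left the value within 1.5 times (counts) or within the spread between replicates (medians and shares), and 8 moved it. FS2-AEBP2 has no replicate, so the spread of AEBP2 was used for it. The AEBP2 medians were over 6 genes in replicate 1 and 9 in replicate 2, so their spread also reflects which genes had a peak. By this spread the FS2-AEBP2 median length counted as unchanged, although joining peaks within 1 kb raised it from 2629 bp to 3870 bp. Counting only peaks over the start-site base gave 5 genes in AEBP2 replicate 2 (without Mesp1, Mesp2, Msc and Myod1) and 5 in FS2-AEBP2 (without Mesp1, Tcf15 and Myod1). Keeping only upper-scoring peaks, those reaching the median score of their list, gave 5 genes in FS2-AEBP2, for promoters and for gene bodies, without the same 3 genes. Joining peaks within 1 kb raised the median promoter peak of H3K27me3 replicate 1 to 13964 bp. The share of AEBP2 replicate 2 bases inside H3K27me3 was 97.6% with upper-scoring H3K27me3 peaks, and 99.8% to 100% when either H3K27me3 replicate was left out. That of FS2-AEBP2 was 98.3% to 98.4% when either was left out. Without AEBP2 replicate 1 the number of genes with AEBP2 in the remaining replicate is 9, and without replicate 2 it is 6. The Tcf15 peak of FS2-AEBP2 was lost when at least 500 bp had to be covered. No paired analysis was possible because no test was run on these peak lists, which hold no counts. Unknown depth limits every missing peak.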
